A study of Mus musculus with 22 samples.

Results

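The corticotropin releasing hormone (Crh) system was examined in the hippocampal CA1 region through 4 genes taken by name from the expression matrix: the peptide Crh, its receptors Crhr1 and Crhr2, and the binding protein Crhbp. These are 4 of 23361 genes in the matrix, and all 4 passed the filter on low values that left 16978 genes for testing. Female Swiss Webster x DBA/C57BL6 F1 wild-type mice were fed ad libitum (AL) or received a calorie-restricted (CR) diet, in which carbohydrates were cut, from young adulthood until 5 or 15 months of age. Each mouse gave 1 mRNA library from microdissected CA1 tissue, with 5 AL and 5 CR mice at 5 months and 6 AL and 6 CR mice at 15 months. Libraries carry the numbers of the submitters' labels, which start at 0 in each group. Levels are FPKM, fragment counts scaled by exon length and by the mapped fragments of the library, so that levels of different genes can be set side by side. Libraries 4 and 5 of the AL mice at 15 months stood apart by the highest neocortex and subiculum markers relative to CA1 markers, and libraries 3 and 4 of the CR mice at 5 months by the highest choroid plexus markers. Group differences of the 4 genes that rest on them are given with and without them.

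Crh is the peptide best known for starting the hormonal stress response from the hypothalamus. In the hippocampus it is made mainly by GABAergic interneurons and acts on Crhr1, a class B G-protein coupled receptor of pyramidal neurons that signals chiefly through Gs and cAMP. Crhr2 is the related receptor that prefers the urocortins, and Crhbp is a secreted protein that binds Crh and limits its access to receptors.

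The 4 genes lie on separate chromosomes of GRCm38 in the GENCODE M21 annotation, Crh on chromosome 3 (19693401 to 19695396, minus strand), Crhr1 on chromosome 11 (104132855 to 104175523, plus strand), Crhr2 on chromosome 6 (55090049 to 55133016, minus strand) and Crhbp on chromosome 13 (95431371 to 95444924, minus strand). Crh is a compact gene of 1996 bases with 2 exons, whereas Crhr1 and Crhr2 span 42669 and 42968 bases with up to 13 exons and Crhbp spans 13554 bases with up to 7. The nearest gene to Crh, Trim55, is 979 bases away and had a mean of 0.00115 FPKM. The receptor promoters are printed because these paralogs, which bind related peptides, had different levels in CA1. Shown for each are the 250 bases before the RefSeq start on GRCm38.p6, 5′ to 3′ on the gene's strand, Crhr1 at chr11:104132531-104132780 (plus strand) and Crhr2 at chr6:55133017-55133266 (minus strand), with matches to the GC box GGGCGG or the TATA box TATAAA in capitals.
Crhr1: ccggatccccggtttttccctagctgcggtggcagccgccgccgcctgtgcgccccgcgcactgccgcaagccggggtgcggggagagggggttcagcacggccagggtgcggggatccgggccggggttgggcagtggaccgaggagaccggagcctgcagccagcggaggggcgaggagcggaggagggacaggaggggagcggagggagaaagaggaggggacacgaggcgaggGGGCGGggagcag
Crhr2: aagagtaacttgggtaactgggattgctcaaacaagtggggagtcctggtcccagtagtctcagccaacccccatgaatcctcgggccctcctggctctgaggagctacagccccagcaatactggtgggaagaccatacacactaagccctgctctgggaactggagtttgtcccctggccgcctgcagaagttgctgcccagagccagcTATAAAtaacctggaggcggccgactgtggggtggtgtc
The Crhr1 window had 74.8% G and C, more than 95.8% of promoters, and held a GC box that began 13 bases before the start. The Crhr2 window had 57.6% G and C and held a TATA box that began 39 bases before the start. On either strand, GGGCGG was found in 32.7% and TATAAA in 12.4% of 32851 promoter windows of the same length. Neither receptor window held the cAMP response half-site TGACG, which 17.8% of all windows held on either strand. Crhr2 has 9 annotated transcripts, 5 of them protein-coding, and Crhr1 has 1. The start used in CA1 was not examined, and a link between these windows and the levels was not tested.

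Crhbp was the most abundant of the 4 mRNAs, with a mean of 26.8 FPKM over all 22 libraries, above 76.9% of the tested genes. Crhr1 had a mean of 9.17 FPKM, above 50.6% of genes. Crh (2.52 FPKM) and Crhr2 (1.56 FPKM) were above 28.5% and 23.2%. The mRNA of the binding protein was therefore above that of the peptide it binds in every library. Crhr1 was above Crhr2 in all but 1 CR library at 5 months. Amounts of peptide and protein were not measured. The order Crhbp, Crhr1, Crh, Crhr2 was found in 18 libraries, and Crh and Crhr2 changed places in 3.

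The mRNA of the peptide was highest in AL mice at 15 months. Crh in the 5 AL mice at 5 months was 1.56, 1.72, 1.59, 1.37 and 1.86 FPKM, and in the 5 CR mice at 5 months 1.75, 2.44, 2.83, 1.76 and 0.912 FPKM. In the AL mice at 15 months the lowest value was 2.75, the median 3.70 and the highest 6.35 FPKM. In the CR mice at 15 months the lowest was 0.864, the median 2.22 and the highest 3.32 FPKM. Every AL library at 15 months was thus above every AL library at 5 months, while the CR libraries at 15 months reached from below the lowest to above the highest AL library at 5 months. The spread was narrow in AL mice at 5 months, with a coefficient of variation (CV) of 11.4%, and wider in the other groups, at 37.9%, 34.4% and 48.2% for CR at 5 months, AL at 15 months and CR at 15 months.

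**Figure D1:**
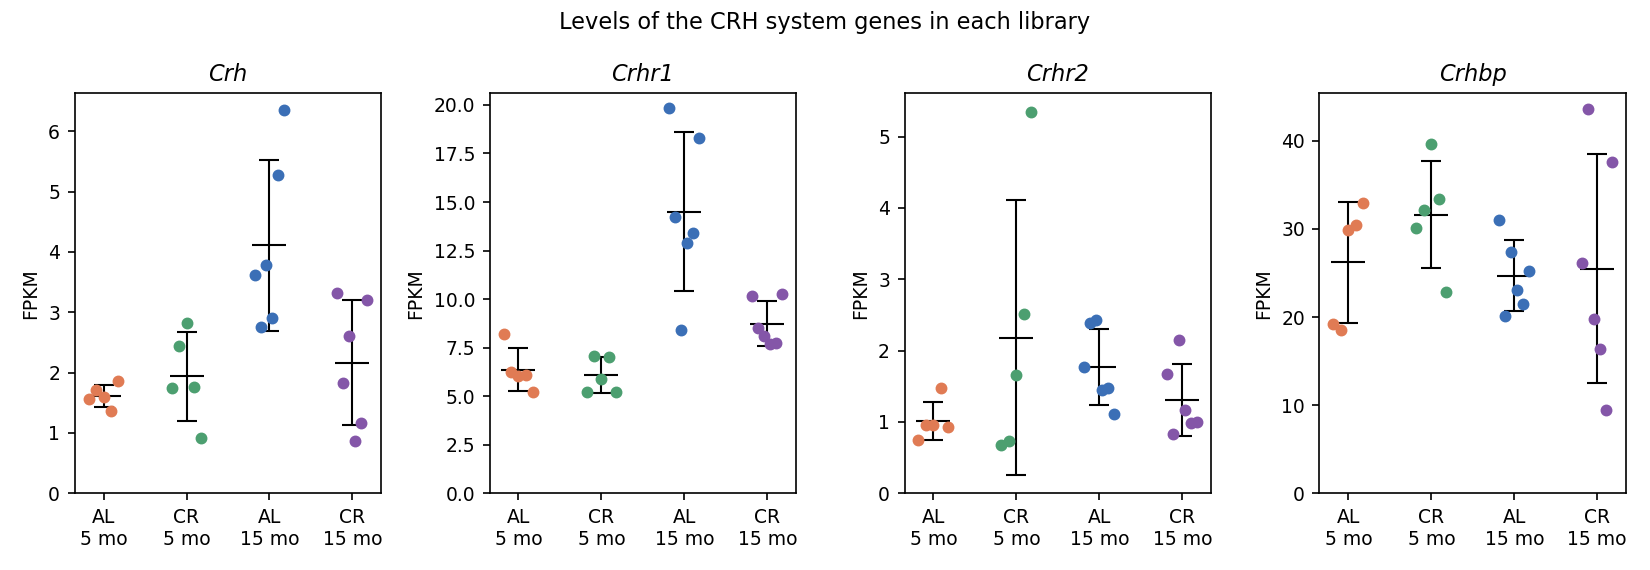
FPKM of Crh, Crhr1, Crhr2 and Crhbp in each of the 22 libraries, by diet and age; each point is 1 mouse, and the bars are the group mean ± SD (n = 5 at 5 months, n = 6 at 15 months). The AL libraries at 15 months lie above both 5 month groups for Crhr1 and above the AL libraries at 5 months for Crh, and Crhbp overlaps in all groups.

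The first question was whether the system changed with age in AL-fed mice. Mean Crh was 1.62 ± 0.184 FPKM in the 5 younger AL mice and 4.11 ± 1.42 FPKM in the 6 older ones (both SD), 2.54 times as high. It rose with age by 1.24 on the log2(FPKM + 0.1) scale (SE 0.32, 95% confidence interval 0.58 to 1.90, limma adjusted p = 0.00990). The exact permutation test of the mean log2 levels gave a two-sided p of 0.00216, the smallest that 6 against 5 libraries allow.

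Crhr1, the receptor through which Crh acts in pyramidal neurons, rose by a similar amount. Its levels in AL mice at 5 months were 8.21, 6.27, 6.03, 6.11 and 5.20 FPKM (6.36 ± 1.11, SD, n = 5). At 15 months the lowest AL library had 8.39, the median was 13.8 and the highest 19.9 FPKM (14.5 ± 4.10, SD, n = 6). All 6 older AL mice were above all 5 younger ones, although the lowest, library 2, was close to the highest younger mouse. The log2 change was 1.14 (SE 0.17, 95% confidence interval 0.79 to 1.49, limma adjusted p = 0.000385, exact permutation p = 0.00433), and the ratio of mean FPKM was 2.28.

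Crhr2 and Crhbp did not pass the test with age in AL mice. Crhr2 in AL mice at 5 months was 0.749, 0.950, 0.960, 1.47 and 0.927 FPKM (1.01 ± 0.271, SD, n = 5). At 15 months its lowest value was 1.11, the median 1.62 and the highest 2.43 FPKM (1.77 ± 0.535, SD, n = 6). The groups overlapped, with 4 of the 6 older mice above the highest younger one, and the difference was 0.73 on the log2 scale (SE 0.39, 95% confidence interval -0.07 to 1.53, limma adjusted p = 0.182, exact permutation p = 0.0130). With only the AL groups in the fit this difference had an adjusted p of 0.0327 by limma.

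Crhbp in AL mice at 5 months was 19.2, 18.5, 29.9, 30.5 and 33.0 FPKM (26.2 ± 6.84, SD, n = 5), and at 15 months its lowest, median and highest values were 20.1, 24.2 and 31.0 FPKM (24.7 ± 4.03, SD, n = 6). The older mice lay within the range of the younger ones. The log2 difference was -0.06 (SE 0.29, 95% confidence interval -0.66 to 0.54, limma adjusted p = 0.909). The mean ratio of Crhbp to Crh was 16.4 ± 4.76 in younger AL mice and 6.52 ± 1.99 in older ones (SD, n = 5 and 6), and no library of the older group reached the lowest younger one. This ratio uses the Crh values compared above, so it is not a separate result. It was chosen after the levels were seen and was not tested, and the share of other ratios without overlap is not given here.

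In this comparison 2 of the 4 genes were called higher at an adjusted p under 0.05, where 20.6% of all tested genes were called, 10.7% higher and 9.97% lower. Both called genes had no overlap between the age groups, which was also the case for 14.0% of all tested genes. Crh and Crhr1 are among the genes the study singled out in these same libraries, so their direction here is not independent evidence.

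Markers of CA1 and of neighboring tissue moved with age as well. Of 5 CA1 pyramidal neuron markers 4 were called lower with age in AL mice, and of 11 neocortex and subiculum markers 6 were called higher. Of these 11, 10 had a difference above 0. The exception was Fezf2, the most abundant of them over all libraries, which averaged 22.9 ± 3.68 FPKM at 5 and 18.4 ± 3.88 FPKM at 15 months (SD). The CA1 markers summed to 135 to 326 FPKM in AL mice at 5 months and 78.8 to 144 FPKM at 15 months, and the neocortex and subiculum markers to 61.4 to 86.8 and 87.8 to 146 FPKM. No marker of either list was at 0 in all libraries of a group, and in AL mice at 15 months the CA1 markers Fibcd1 and Spink8 averaged 10.1 ± 10.4 and 6.21 ± 5.29 FPKM, against 62.0 ± 28.2 and 68.0 ± 26.5 FPKM at 5 months (SD, n = 6 and 5). Wfs1, the most abundant marker of this list at 15 months and the 1 that was not called lower, averaged 56.5 ± 22.3 FPKM at 5 and 83.4 ± 15.2 FPKM at 15 months (log2 difference 0.63). Of 5 dentate granule cell markers 2 were called lower with age in AL mice and none higher, with a median of -1.67 and all 5 below 0. A region score was taken as the mean log2 level of the neocortex and subiculum markers minus that of the CA1 markers. It ran from -4.41 to -2.55 in AL mice at 5 months and from -1.35 to 1.32 at 15 months, with no overlap.

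Libraries 4 and 5 of the AL mice at 15 months had the highest region scores of all 22 libraries, 1.32 and 1.31, and also the highest Crh, 5.27 and 6.35 FPKM. Without both, the age difference was 0.96 on the log2 scale for Crh (limma adjusted p = 0.0586) and 1.06 for Crhr1 (adjusted p = 0.00289). With the region score as a covariate it was 0.37 (adjusted p = 0.785) for Crh and 0.81 (adjusted p = 0.209) for Crhr1. Since the scores of the age groups do not overlap, age and the balance of these markers cannot be told apart for Crh and Crhr1. In bulk tissue, fewer cells of a type and less RNA per cell cannot be told apart either.

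Of 9 markers of GABAergic interneurons, the cells that make Crh, none was called by limma with age in AL mice and 2 had an unadjusted p under 0.05. The share of all tested genes at that unadjusted level is not given here. The 9 markers summed to 557 to 874 FPKM at 5 months and 638 to 865 FPKM at 15 months. With the mean log2 level of 8 choroid plexus markers as a covariate, the age difference of Crh was 0.91 (limma adjusted p = 0.108). Of these markers 4 were called lower with age in AL mice, so age and these markers are not well separated in that fit. With the interneuron score as a covariate the age difference was 0.95 for Crh (limma adjusted p = 0.0120) and 1.14 for Crhr1 (adjusted p = 0.000817).

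**Figure D2:**
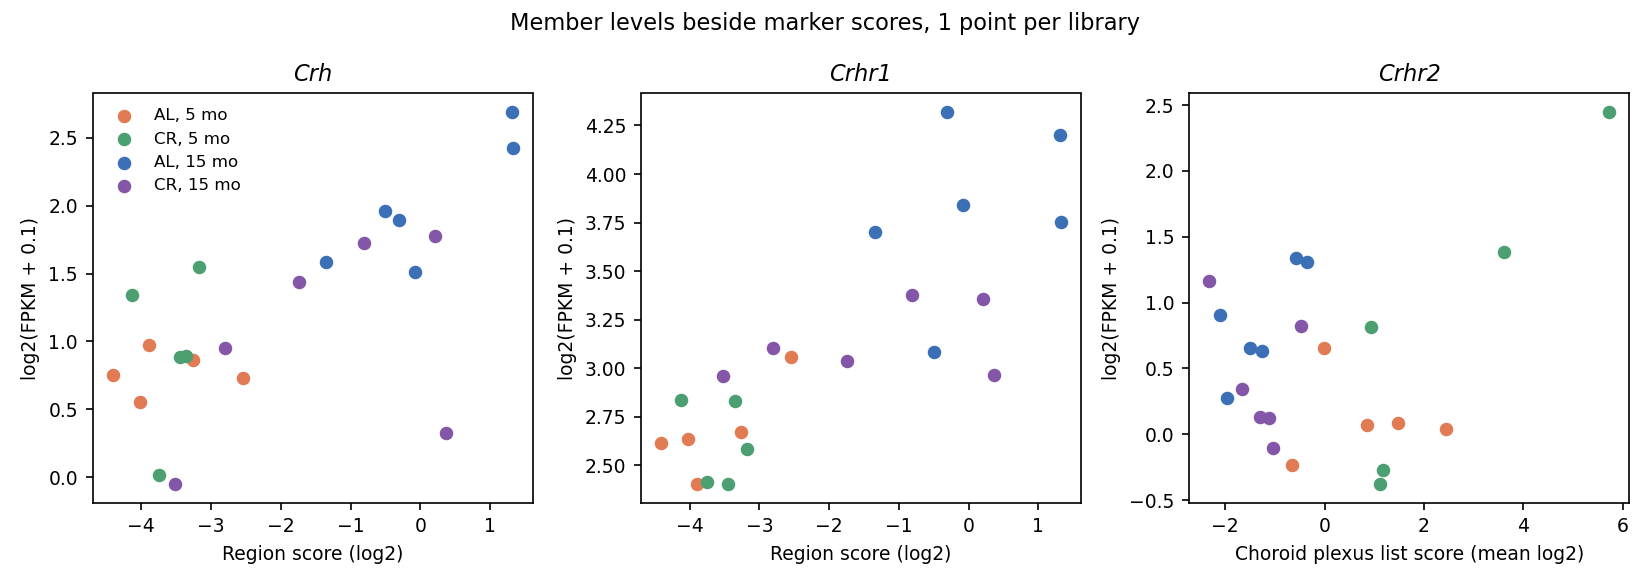
Log2(FPKM + 0.1) of Crh and Crhr1 against the region score, and of Crhr2 against the choroid plexus list score (the mean log2 level of its markers), with 1 point per library colored by diet and age. AL libraries at 15 months lie to the right for the region score, from -1.35 to 1.32, and the 2 CR libraries at 5 months with the highest choroid plexus scores have the highest Crhr2.

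The next question was whether CR altered the system in older mice. In CR mice at 15 months mean Crh was 2.16 ± 1.04 FPKM (SD, n = 6), against 4.11 ± 1.42 FPKM in AL mice of that age. None of the 6 CR mice was above the AL median, and 4 were below the lowest AL mouse. The log2 difference was -0.98 (SE 0.30, 95% confidence interval -1.61 to -0.35), which did not pass the test across all genes (limma adjusted p = 0.118), while the exact permutation test of this gene alone gave p = 0.0238. The adjusted p was 0.0424 without CR library 0, and without AL libraries 4 and 5 the difference was -0.71 (adjusted p = 0.293).

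Crhr1 in the CR mice at 15 months was 7.68 FPKM at the lowest, 8.31 at the median and 10.3 at the highest (8.74 ± 1.18, SD, n = 6), a narrow range beside that of the AL mice. No CR mouse was above the AL median, and 3 were below the lowest AL mouse. The log2 difference of -0.68 (SE 0.16, 95% confidence interval -1.02 to -0.35) lay at the threshold, with a limma adjusted p of 0.0515 and an exact permutation p of 0.00866. The adjusted p was 0.0456 with a pseudocount of 1 and 0.010 without library 2 of the AL mice, the one with the least Crhr1 in its group. It was 0.0266 and 0.0315 without CR library 0 or 5, 0.0258 with the replicate number as a block, and 0.134 without AL libraries 4 and 5, where the difference was -0.60.

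Crhr2 ranged from 0.833 to 2.14 FPKM with a median of 1.08 in CR mice at 15 months (1.30 ± 0.505, SD, n = 6) and differed from AL by -0.44 on the log2 scale (95% confidence interval -1.20 to 0.33, limma adjusted p = 0.562). Crhbp was the most variable there, with a lowest value of 9.44, a median of 23.0 and a highest of 43.7 FPKM (25.5 ± 13.0, SD, n = 6). Its CV of 51.2% compares with 16.3% in AL mice of the same age, and the variances were not compared by a test. The mean log2 level was 0.11 lower with CR (log2 difference -0.11, 95% confidence interval -0.68 to 0.45, limma adjusted p = 0.862), while mean FPKM was 1.03 times as high, so the sign of this difference turned with the scale. None of the 4 genes was called between the diets at 15 months, where 0.742% of all tested genes were called by limma and 17.1% had an unadjusted p under 0.05, as did Crh and Crhr1. The study, which used Cuffdiff at a false discovery rate under 0.05, reported both Crh and Crhr1 as lowered by CR at this age. The tests differ, and the libraries are the same, so the shared direction is not independent evidence.

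The region score was spread widely in these CR mice. It ran from -3.52 to 0.37, with a mean of -1.38 ± 1.59 (SD, n = 6) against 0.07 ± 1.06 in AL mice. In ascending order of the score, CR libraries 3, 1, 2, 5, 0 and 4 had 0.864, 1.83, 2.61, 3.21, 3.32 and 1.16 FPKM of Crh. In these CR mice Crh was thus higher with each higher score except in library 4, which had the highest score and little Crh. By the same order, AL libraries 3, 2, 0, 1, 5 and 4 at 15 months had 2.91, 3.79, 3.61, 2.75, 6.35 and 5.27 FPKM. Crh did not rise step by step with the score there or in either group at 5 months. With the region score as a covariate the diet difference was -0.64 for Crh (limma adjusted p = 0.502), -0.55 for Crhr1 (adjusted p = 0.307), -0.49 for Crhr2 (adjusted p = 0.733) and -0.31 for Crhbp (adjusted p = 0.772). In that fit 5 genes of the matrix were called between the diets at 15 months, against 126 without the score. The dentate granule cell markers had a median difference of 1.38 between CR and AL mice at 15 months, with all 5 above 0, none called by limma and 2 with an unadjusted p under 0.05. Their part in the diet differences was not tested.

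Within CR mice, age differences of the 4 genes did not pass the test by limma, where 3.36% of tested genes were called. The smallest unadjusted limma p of the 4 was 0.00602, for Crhr1. The 5 Crhr1 values in CR mice at 5 months, 5.19, 7.05, 5.89, 7.01 and 5.22 FPKM (6.07 ± 0.917, SD, n = 5), were all below the 6 CR values at 15 months, a separation also seen for 3.26% of tested genes. The difference was 0.52 on the log2 scale (SE 0.17, 95% confidence interval 0.17 to 0.87, limma adjusted p = 0.0997, exact permutation p = 0.00216), and without library 2 of the AL mice at 15 months, which enters this comparison only through the shared variance, the adjusted p was 0.0342. For Crh the difference with age in CR mice was 0.09 (95% confidence interval -0.57 to 0.75, limma adjusted p = 0.921), for Crhr2 -0.38 (adjusted p = 0.639) and for Crhbp -0.46 (adjusted p = 0.414). Without CR libraries 3 and 4 at 5 months the difference was -0.23 for Crh (adjusted p = 0.819) and 0.36 for Crhr2 (adjusted p = 0.661), both of the opposite sign.

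At 5 months, no gene of the matrix was called between the diets by limma (0.0%), and 789 genes (4.65%) had an unadjusted p under 0.05. None of the 4 genes was among them. Mean Crh was 1.94 ± 0.735 FPKM in CR mice and Crhbp 31.6 ± 6.06 FPKM (SD, n = 5 each), and the log2 differences from AL were 0.17 for Crh (95% confidence interval -0.53 to 0.86), -0.06 for Crhr1 (-0.43 to 0.31) and 0.29 for Crhbp (-0.33 to 0.91).

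Crhr2 was the exception in spread. In the CR mice at 5 months it was 0.669, 0.730, 1.66, 2.51 and 5.35 FPKM, a CV of 88.2%, and its log2 difference from AL was 0.68 (SE 0.40, 95% confidence interval -0.16 to 1.52, limma adjusted p = 1). The 2 highest values came from libraries 3 and 4, in which the 8 choroid plexus markers summed to 1012 and 2317 FPKM, against 121 to 186 FPKM in the other CR libraries and 30.4 to 345 FPKM in AL mice at that age. Ttr, the transthyretin gene of choroid plexus, had a mean of 692 ± 840 FPKM in CR and 141 ± 116 FPKM in AL mice at 5 months (SD, n = 5 each). Without both libraries the Crhr2 difference was -0.07. In mice of 15 months the same markers summed to 1.64 to 22.9 FPKM with AL and 2.35 to 33.6 FPKM with CR, and 4 of the 8 were called lower with age in AL mice. With the choroid plexus score as a covariate the age difference of Crhr2 in AL mice was 1.44 (limma adjusted p = 0.0188).

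The older CR mice were also set against the younger AL mice. None of the 4 genes was called by limma, where 3.12% of tested genes were. The smallest unadjusted limma p of the 4 was 0.0138, for Crhr1. The log2 difference was 0.25 for Crh (95% confidence interval -0.41 to 0.91, limma adjusted p = 0.717), 0.46 for Crhr1 (0.10 to 0.81, adjusted p = 0.140), 0.29 for Crhr2 (adjusted p = 0.733) and -0.17 for Crhbp (adjusted p = 0.794). For Crhr1, 3 of the 6 older CR mice were above the highest younger AL mouse and all 6 above its median (exact permutation p = 0.0108). The age and diet comparisons share the AL libraries at 15 months, so opposite signs in them are not separate evidence.

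The age by diet interaction asks directly whether age acted differently under the 2 diets. It was -1.15 for Crh (SE 0.45, 95% confidence interval -2.08 to -0.21, unadjusted p = 0.0185) and -0.62 for Crhr1 (SE 0.24, 95% confidence interval -1.12 to -0.12, unadjusted p = 0.0175), both with a limma adjusted p of 0.628. No gene of the matrix was called by limma for the interaction (0.0%), and 1301 (7.66%) had an unadjusted p under 0.05. For Crhr2 it was -1.12 (95% confidence interval -2.25 to 0.02) and for Crhbp -0.41 (-1.25 to 0.44). Without CR libraries 3 and 4 at 5 months the Crhr2 interaction was -0.37 (unadjusted p = 0.374), and with the choroid plexus score as a covariate -0.54 (unadjusted p = 0.262). The Crh interaction was -0.88 without AL libraries 4 and 5 at 15 months, -0.79 with the region score and -0.55 with the interneuron score as a covariate (unadjusted p = 0.0710, 0.0857 and 0.139). For Crhr1 it was -0.54 without those AL libraries, and -0.48 with the region score and -0.62 with the interneuron score (unadjusted p = 0.0457, 0.0664 and 0.0314).

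**Figure D3:**
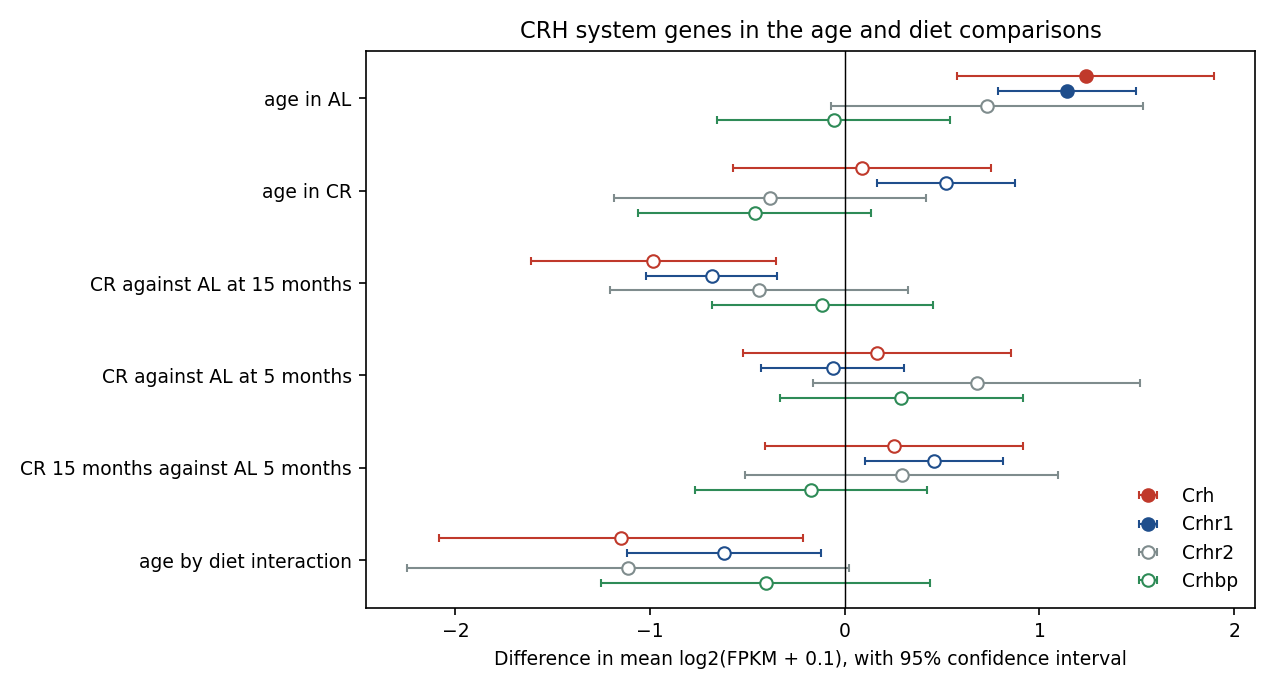
Differences in mean log2(FPKM + 0.1) of the 4 genes in each comparison, with 95% confidence intervals from the limma fit; filled points had an adjusted p under 0.05 over all 16978 tested genes. Only Crh (1.24) and Crhr1 (1.14) with age in AL mice are filled, and the intervals of Crhbp include 0 in every comparison.

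By group means, Crh was highest in AL at 15 months (4.11 FPKM), followed by CR at 15 months (2.16), CR at 5 months (1.94) and AL at 5 months (1.62). The lower 3 groups overlapped, with exact permutation p = 0.835 between the CR ages and 0.563 between the diets at 5 months. Crhr1 had the same order at 15 months (14.5 and 8.74 FPKM) with AL (6.36) and CR (6.07) at 5 months not separated (exact permutation p = 0.587). For Crhr2 the order was CR at 5 months (2.18), AL at 15 months (1.77), CR at 15 months (1.30) and AL at 5 months (1.01), and for Crhbp CR at 5 months (31.6), AL at 5 months (26.2), CR at 15 months (25.5) and AL at 15 months (24.7), and no neighbors in either order differed beyond their spread. The first place of CR at 5 months for Crhr2 rested on libraries 3 and 4, since the other 3 libraries of that group had 0.669, 0.730 and 1.66 FPKM. In all, 24 exact tests were made over the 4 genes, and their p-values are not adjusted. Each is the share of all divisions of the libraries that gave a difference in mean log2 level at least as large as the observed one.

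The urocortins, the other ligands of these receptors, were near the floor of the matrix. Ucn had a highest value of 1.06 FPKM and was listed at 0 in 3 of the 5 CR mice at 5 months. In AL mice it was between 0.0455 and 0.0725 FPKM at 5 months and between 0.0581 and 1.06 FPKM at 15 months, a log2 difference of 1.16 (SE 0.47, limma adjusted p = 0.0851). Ucn3 was listed at 0 in 14 of 22 libraries, and 1 AL library at 15 months had 6.05 FPKM while the others of that group had at most 0.0102. Ucn2 had a mean of 0.0991 FPKM and was below the filter, so it was not tested.

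The wider pathway was described through 7 lists with 94 genes, 91 of them tested, from ligands and receptors to cAMP-responsive genes. With age in AL mice 18 of the 91 were called higher and 7 lower (27.5% called, where 20.6% of all tested genes were). In CR mice with age 2 of the 91 were called higher and none lower, where 3.36% of all tested genes were called. Between the diets at 15 months 0 were called by limma and 12 had an unadjusted p under 0.05, against 0.742% and 17.1% of all tested genes. In older CR mice 4 were called higher than in younger AL mice, where 3.12% of all tested genes were called in either direction. Once the region score entered the model, no gene of the matrix was called with age in AL mice.

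Among receptors of the same class B family, 4 of 11 tested were called higher with age in AL mice and none lower, with a median log2 change of 0.39 against -0.0018 for all tested genes. The parathyroid hormone receptor genes Pth2r and Pth1r rose by 1.69 (SE 0.41, limma adjusted p = 0.00706) and 1.09 (SE 0.31, adjusted p = 0.0192), from 0.227 and 2.37 FPKM at 5 months. Vipr1, a receptor for vasoactive intestinal peptide, rose by 0.66 in AL mice (adjusted p = 0.000680) and by 0.49 in CR mice (adjusted p = 0.0144). Adcyap1r1, the receptor for the peptide Pacap, was the most abundant of them, with 38.6 ± 3.83 FPKM (SD, n = 5) in younger AL mice. Older AL mice had 51.9 ± 6.66 FPKM and older CR mice 50.3 ± 5.21 FPKM (SD, n = 6 each). The older CR mice were 0.38 above the younger AL mice on the log2 scale (limma adjusted p = 0.0362). Crhr1 therefore rose alongside other class B receptors, and whether it rose more than they did was not tested.

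Of 17 other neuropeptides, 3 were called higher and 2 lower with age in AL mice, and the median change was -0.09. Adcyap1, which encodes Pacap, rose by 2.26 on the log2 scale (SE 0.61, limma adjusted p = 0.0131), from 2.19 ± 2.40 to 8.22 ± 4.16 FPKM (SD, n = 5 and 6). With the region score as a covariate the difference was -0.32, and without libraries 4 and 5 of the AL mice at 15 months it was 2.03 (adjusted p = 0.0545). Tac2, the neurokinin B gene, rose by 0.86 (adjusted p = 0.0247) and cortistatin (Cort) by 0.61 (adjusted p = 0.0499). Oxytocin (Oxt) fell by 3.48, from 4.02 ± 4.09 to 0.147 ± 0.118 FPKM, and cholecystokinin (Cck), the most abundant of the named peptides, fell by 0.41 from 406 to 307 FPKM (adjusted p = 0.00306 and 0.0132). Neither Oxt nor Cck was called in the other comparisons, whose differences from this one were not tested.

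Genes that couple the receptors to cAMP and calcium moved both ways, 4 of 23 higher and 2 lower with age in AL mice, with a median of -0.07. The adenylate cyclase gene Adcy8 rose by 1.08 (SE 0.22, limma adjusted p = 0.00241) and Adcy9 fell by 0.68 (adjusted p = 0.0164). The inositol trisphosphate receptor gene Itpr3 rose by 0.80 and the phospholipase gene Plcb4 by 0.78 (adjusted p = 0.0250 and 0.0288), while Gnaq, the Gq alpha subunit, fell by 0.49 (adjusted p = 0.00204). Gnas, which encodes the Gs alpha subunit, was not called.

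Of 22 kinases and effectors 3 were called in each direction. Prkacb and Prkar2b, a catalytic and a regulatory subunit of protein kinase A, rose by 0.80 and 0.86 (limma adjusted p = 0.000866 and 0.00289), and the Erk kinase gene Mapk3 by 0.54 (adjusted p = 0.0267). The protein kinase C genes Prkca and Prkce fell by 0.84 and 0.45 (adjusted p = 0.0119 and 0.00489). Prkacb was also called higher in older CR than in younger AL mice, by 0.55 (adjusted p = 0.0359).

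Of 6 genes that desensitize such receptors, beta-arrestin 1 (Arrb1) and the receptor kinase gene Adrbk1 were called higher with age in AL mice, by 0.36 (limma adjusted p = 0.000403) and 0.20 (adjusted p = 0.0264). Arrb1 was higher by 0.24 in CR mice with age and by 0.26 in older CR against younger AL mice (adjusted p = 0.0134 and 0.0121). Of 10 cAMP-responsive genes, the salt-inducible kinase gene Sik1 and the clock gene Per1 were called higher with age in AL mice, by 0.94 and 0.57 (adjusted p = 0.00568 and 0.0219). The list's median was 0.71, and its values ran from -0.51 to 1.25. An unadjusted limma p under 0.05 was found for 7 of the 10, and for 36 of the 91 tested genes of all 7 lists. The share of all tested genes at that unadjusted level is not given here. Between the diets at 15 months none of these 10 was called by limma and 2 had an unadjusted p under 0.05, with a median of -0.20.

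**Figure D4:**
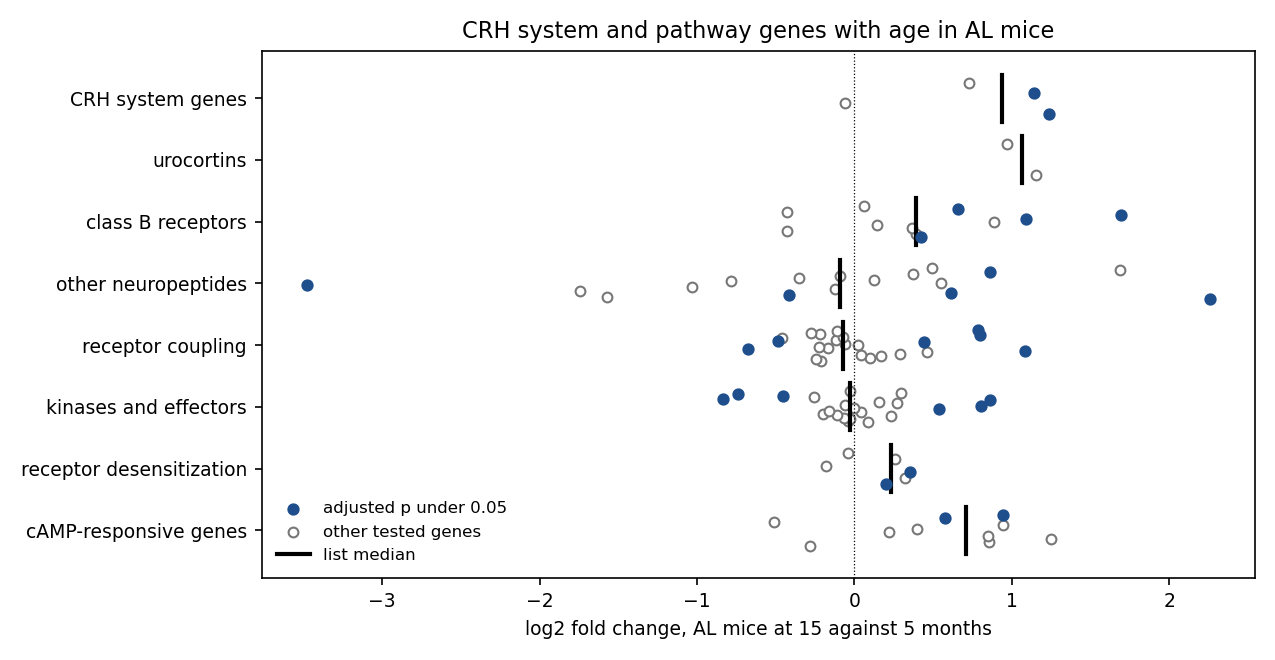
Log2 fold change with age in AL mice (15 against 5 months) for each tested gene of the Crh system and of 7 pathway lists; filled points had a limma adjusted p under 0.05, open points did not, and vertical bars are list medians. Class B receptors and cAMP-responsive genes have medians of 0.39 and 0.71, and the coupling and kinase lists have called genes on both sides of 0.

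The genes whose log2 levels followed each member most closely were found among 13838 genes with a mean of at least 1 FPKM, by Pearson's r over the 22 libraries. These libraries share tissue composition and group differences, so r is a description, given also for deviations from the group means. Crh was followed most closely by Cdc42ep3 (r = 0.930, deviations 0.870), Rnd1 (0.900, 0.838), 2610100L16Rik (0.900, 0.834), Dpp10 (0.895, 0.841) and Vwc2 (0.895, 0.799). For Crhr1 they were Tshz3 (0.931, 0.795), Rnf144b (0.930, 0.778), Cacnb4 (0.930, 0.903), Tmem145 (0.928, 0.678) and Strbp (0.925, 0.737). By r over the 22 libraries, Crhr2 and Crhbp had weaker partners, led by Spint2 (0.797, 0.769) and Bcam (0.791, 0.778) for Crhr2. For Crhbp they were led by Ccna1 (0.806, 0.805) and Pard6a (0.798, 0.809). By r of deviations, these partners lay within the range of the Crhr1 partners, 0.678 to 0.903. Among the members themselves, r was 0.71 between Crh and Crhr1 and 0.364 for their deviations, and for Crh and Crhbp it was 0.284 and 0.524.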

How the data were processed

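The authors sequenced mRNA from CA1 microdissections, aligned reads to mm10 with TopHat, removed duplicates with Picard, and deposited FPKM values estimated by Cufflinks with corrections for fragment bias and multiply mapped reads; the tool versions and the annotation release are not given in the sources used here. Whole reads could not be recovered from the FPKM, so the depth behind single values is unknown. Median FPKM per library was 2.51 to 3.10, and no pair of libraries was identical.

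From the FPKM, log2(FPKM + 0.1) was computed for genes with a mean of at least 0.1 FPKM, and all 4 groups were fitted together in limma 3.58.1 under R 4.3.3 (two-sided moderated test with an intensity trend, Benjamini-Hochberg adjustment across all genes of a contrast). The study's own calls came from Cuffdiff. Permutation tests of mean log2 levels were exact and two-sided, and used numpy 2.4.6 in Python 3.11.15. Tables were made with pandas 2.3.3 and figures with matplotlib 3.10.9. The fit was also run on simulated data with independent normal noise for each gene. Those data lack the tissue differences that these libraries share across genes, so that run does not bear on them.

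The members, the 7 pathway lists and the 13 marker lists (79 genes) were chosen with earlier results of these data known. From each pathway list and contrast, up to 3 called genes per direction with the largest change are named, except 1 that is not reported here; the 5 most alike genes were taken per member. Marker genes were named after their values were seen. Alternatives were other pseudocounts and filters, other scaling, eBayes without trend, separate fits, a replicate block, marker scores as covariates and libraries left out. Promoters from RefSeq matched 3 of the 4 members (not Crh) and 2 of 3 urocortins.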

Additional observations from a re-analysis of the deposited data

Results flagged for a closer look

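Of 28 groups examined (4 members and 3 urocortins, 4 groups each), 4 had a single library far from the rest by Dixon's test at 95%. Chance gives this in about 1 of 20 groups of normally distributed values. None concerned a member. All 4 were high values of urocortins in AL mice, genes near the floor of the matrix, where that rate need not hold. Ucn3 was 6.05 FPKM in library 2 at 15 months, where the next value was 0.0102 FPKM, and 0.0162 FPKM in library 1 at 5 months, where the other 4 were listed at 0. Ucn was 1.06 FPKM in library 2 at 15 months, where the next value was 0.425 FPKM, and 0.0725 FPKM in library 2 at 5 months, where the next was 0.0517 FPKM.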

How the results depend on the processing

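Over 24 results (4 members, 6 comparisons) and 860 alternative values, 821 kept their direction and side of the threshold, 25 changed sign, 10 passed the threshold newly and 4 no longer passed it. For Crh with age in AL mice the call was lost with the region score (0.37) or the choroid plexus score (0.91) as a covariate and without AL libraries 4 and 5 at 15 months (0.96), and for Crhr1 with the region score (0.81). Crhr1 between the diets at 15 months passed with a pseudocount of 1 (-0.63) and with the choroid plexus score (-0.69), and Crhr2 with age in AL mice passed in a separate fit (0.73) and with the choroid plexus score (1.44). The causes were not tested.

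Equal library numbers did not mark pairs: in 31 pairs of equal number the correlation of deviations from group means was between -0.139 and 0.163, above 0.1 in 2, and 5 of the 22 libraries were most like one of their own number. The replicate number as a block left the Crhr1 difference between the diets at 15 months at -0.68 with a limma adjusted p of 0.0258, turned Crh with age in CR mice to -0.049, and changed no other member's call. It moved the number of all genes called between the diets at 15 months from 126 to 323. Sign changes of uncalled differences with the region score as a covariate were Crh with age in CR (-0.43) and for CR at 15 against AL at 5 months (-0.27), Crhbp with age in AL (0.43) and for CR at 15 against AL at 5 months (0.12), and, among called genes, Adcyap1 with age in AL (-0.32). With the choroid plexus score they were Crh with age in CR (-0.51) and for CR at 15 against AL at 5 months (-0.081), Crhr1 between the diets at 5 months (0.071) and Crhr2 with age in CR (0.90). With the interneuron score they were Crh (-0.22) and Crhbp (-0.032) between the diets at 5 months, Crhbp between the diets at 15 months (0.071) and its interaction (0.10). Without CR libraries 3 and 4 at 5 months (chosen, like AL libraries 4 and 5, after seeing the data) they were Crh (-0.23) and Crhr2 (0.36) with age in CR and Crhr2 between the diets at 5 months (-0.067).

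With each library left out in turn, Crh and Crhr1 with age in AL mice kept their calls in all 22 fits, at 1.10 to 1.34 and 1.04 to 1.29. Crh between the diets at 15 months ran from -1.13 to -0.77 and was called without CR library 0 (limma adjusted p = 0.0424). Crhr1 there ran from -0.83 to -0.58 and was called without AL library 2, CR library 0 or CR library 5 (adjusted p = 0.010, 0.0266 and 0.0315), and with age in CR mice from 0.47 to 0.58. Ranges that crossed 0 were -0.14 to 0.30 for Crh and -0.68 to 0.027 for Crhr2 with age in CR, -0.13 to 0.032 for Crhr1 between the diets at 5 months, and for Crhbp -0.17 to 0.035 with age in AL, -0.30 to 0.13 between the diets at 15 months and -0.36 to 0.077 for CR at 15 against AL at 5 months. Ucn3 with age in AL ran from -0.015 to 1.17, the lowest without AL library 2. Of the pathway genes named, Cort kept its call in 10 of these 22 fits, Plcb4 in 17, Tac2, Itpr3 and Mapk3 in 18, Per1 in 19, Adrbk1 in 20 and Pth1r in 21.

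Over all genes, with age in AL mice, 3502 calls became 0 with the region score and 1911 with the choroid plexus score, and in CR mice 570 became 139 and 0, 304 with genes of at least 1 FPKM, 324 in a separate fit, 230 without CR libraries 3 and 4, and 331 to 775 with single libraries left out (331 and 347 without CR library 1 or 4 at 5 months). Between the diets at 15 months, 126 became 77 with quantile normalization, 0 in a separate fit, 5 with the region score, 27 with the interneuron score, 41 without AL libraries 4 and 5 and 59 without CR libraries 3 and 4, and ran from 15 (without AL library 0 or 4 or CR library 3 of that age) to 732 (without CR library 0) with single libraries left out. For CR at 15 against AL at 5 months, 529 became 340 with genes of at least 1 FPKM, 218 in a separate fit, 77 with the region score and 59 with the choroid plexus score. It became 297, 181 and 211 without AL library 1, 2 or 4 at 5 months, and 342, 925 and 842 without CR library 0, 2 or 3 at 15 months.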

Other observations

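Library 2 of the AL mice at 15 months, chosen here after its values were seen, had the highest Ucn and Ucn3 together with the highest levels of 5 of 30 other neuropeptides and class B receptors among all 22 libraries. Library 2 of the CR mice at 5 months was highest for 4 of the 30, and libraries 4 of the AL mice at 5 months, 5 of the AL mice at 15 months and 4 of the CR mice at 15 months for 3 each. Those highest in the first library were substance P precursor Tac1 (34.4 FPKM, next 23.5), proenkephalin Penk (127, next 83.5), prepronociceptin Pnoc (9.17, next 6.50), Adcyap1 (14.6, next 13.2) and the calcitonin receptor gene Calcr (2.78, next 0.505). The same library had 3.79 FPKM of Crh, near the median of its group, and 8.39 FPKM of Crhr1, the lowest of its group.

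The ratio of Crhbp to Crhr1 had a mean of 4.32 ± 1.64 in AL and 5.25 ± 0.994 in CR mice at 5 months (SD, n = 5 each), and of 1.83 ± 0.715 in AL and 2.86 ± 1.37 in CR mice at 15 months (SD, n = 6 each). The ratio of Crhbp to Crh in CR mice was 17.7 ± 4.76 at 5 months and 13.0 ± 6.83 at 15 months. These ratios were chosen after the levels were seen and were not tested.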
